A study of Mus musculus with 1 sample.

Results

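The 10 genes described here encode receptors of the transforming growth factor beta (TGF-beta) family, SMAD proteins and 1 SMAD-binding repressor. The SMAD proteins carry the TGF-beta signal, except SMAD7, which restrains it. The genes are Tgfbr1, Tgfbr2, Tgfbr3, Eng, Acvrl1, Smad2, Smad3, Smad4, Smad7 and Skil. They were chosen by name, because the genotype label of the sample names a floxed type II TGF-beta receptor. All 10 had a row of their own among the 23386 genes of the deposited table. The sample is 1 RNA-seq library from mouse pancreas fibroblasts expanded in culture. Its labels give normal pancreas as the tissue, a mixed C57BL/6 and BALB/c background, and a genotype that is negative for a Cre written tf1acre and homozygous for a floxed allele written Tgfrb2flox/flox. The series set such cells against cancer-associated fibroblasts, of which no library was analysed here, so that the levels within 1 library are reported and no condition is compared. The value column carries the code CAF, an abbreviation that the series title uses for cancer-associated fibroblast, and so disagrees with the label; the sample is therefore called the library labelled normal fibroblast.

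TGF-beta is a secreted dimer that binds the type II receptor, a kinase that then phosphorylates a type I receptor. The type I receptor phosphorylates SMAD2 and SMAD3, which join SMAD4 and enter the nucleus to act on target genes. In fibroblasts of the pancreas and other organs the pathway is best known for inducing matrix and contractile genes. A floxed allele keeps its gene active until Cre recombinase cuts out the DNA between its loxP sites.

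The values are 52494688 reads recovered from the deposited normalised counts. Levels are given as CPM, reads per 1000000 reads in the table, and, wherever genes are compared with each other, as RPKM, CPM per 1000 bases of the union of a gene's annotated exons. Each interval in parentheses after a level is an exact 95% Poisson interval, and after a ratio it is an exact conditional 95% interval. With 1 library there is no replicate, no spread between cultures can be given, no test was run, and intervals cover counting error only.

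For 4 of the 10 genes the row names several transcripts and gives 1 value. The transcripts of Tgfbr2, Eng and Skil encode different proteins, and coding bases that tell forms apart are shown because the row gives 1 value for all of them and none for a single form. Each sequence is read 5′ to 3′ from the GENCODE M21 transcripts on GRCm38, with the bases found in 1 form only in capitals and coding bases of both forms in lower case.

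Tgfbr2, exon 2 of 8 of the longer transcript, chr9:116158271-116158345, minus strand: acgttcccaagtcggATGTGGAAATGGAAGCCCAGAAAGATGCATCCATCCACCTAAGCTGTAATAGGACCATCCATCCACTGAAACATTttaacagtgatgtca
Eng, within exon 14 of 14 of the short form, chr2:32681298-32681383, plus strand: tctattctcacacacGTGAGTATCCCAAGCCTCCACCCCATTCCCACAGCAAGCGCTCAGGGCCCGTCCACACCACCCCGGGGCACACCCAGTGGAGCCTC
Skil, within exon 4 of 7 of the longer transcript, chr3:31113503-31113640, plus strand: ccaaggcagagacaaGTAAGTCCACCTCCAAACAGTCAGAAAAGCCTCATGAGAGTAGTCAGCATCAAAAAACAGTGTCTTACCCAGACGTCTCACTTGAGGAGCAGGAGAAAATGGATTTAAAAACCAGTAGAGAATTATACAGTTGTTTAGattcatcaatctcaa

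The 75 extra bases of Tgfbr2 make a separate coding exon, so that the protein has 592 residues with it and 567 without it. In Eng the 86 bases are the coding part of sequence that the other transcripts splice out. The short protein that ends there, known as S-endoglin, has 641 residues, against 653 and 652 residues of the other forms, which differ by 3 bases of exon 2 (chr2:32657516-32657518, not shown as a sequence). The 138 bases of Skil separate a protein of 675 residues from one of 629 residues. Both transcripts of Smad2 encode 467 residues.

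Tgfbr2 encodes the type II receptor, the kinase that binds the ligand and the gene that the genotype label names. It lies on chromosome 9 from 116087695 to 116175363 (GRCm38, like all positions given here). The library held 10560 reads of Tgfbr2, or 201 CPM (197 to 205), the highest read count of the 10 genes. Per length its level was 24.6 RPKM (24.1 to 25), higher than that of 87.5% of the detected protein-coding genes, where detected means at least 10 reads. The row adds up reads from every exon, so it cannot tell an intact floxed allele from one that has lost an exon.

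Tgfbr1 encodes the type I receptor of TGF-beta, also called ALK5 (chromosome 4, 47353222 to 47414926). It had 5223 reads, 99.5 CPM (96.8 to 102), which is 15.2 RPKM (14.8 to 15.6). Its partner Tgfbr2 stood 1.61-fold above it per length (exact conditional interval 1.56 to 1.67). The excess was between 1.42-fold and 1.72-fold with the other definitions of length used. Acvrl1, the gene of the type I receptor ALK1, which is best known in endothelial cells and binds BMP9 and BMP10 (chromosome 15, 101128522 to 101145336), had 303 reads. Its 5.77 CPM (5.14 to 6.46) came to 1.35 RPKM (1.21 to 1.51), above only 27.6% of the detected coding genes and the lowest level of the 10. Tgfbr1 was 11.3-fold higher per length than Acvrl1 (10 to 12.7), and 17.2-fold higher per coding length. An antisense gene, Gm16031, shares 127 exonic bases with Acvrl1, with a strand setting of the counting not given in the sources used here; the part of these bases in the value was not tested.

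The co-receptors Tgfbr3 and Eng encode betaglycan and endoglin, membrane proteins that bind ligands of the family and have no kinase of their own. Eng (chromosome 2, 32646595 to 32682669) had 3367 reads, 64.1 CPM (62.0 to 66.3) and 15.8 RPKM (15.3 to 16.4). Tgfbr3 (chromosome 5, 107106567 to 107289629) had more reads, 3934, or 74.9 CPM (72.6 to 77.3), over a longer transcript, and 11.5 RPKM (11.1 to 11.8). Per length Eng was thus 1.38-fold higher (1.32 to 1.45), an excess that was only 1.11-fold per coding length. Endoglin is widely used as an endothelial marker and acts with ALK1 in endothelial cells. The place of Eng next to Tgfbr1 depended on the length: over all exons the levels were 15.8 and 15.2 RPKM with overlapping intervals, but per coding length they were 32.7 and 65.9 RPKM. Eng shares 61 exonic bases with Fpgs on the opposite strand, a gene with 2292 reads, and the part of these bases in either value was not tested. In the same way Tgfbr3 shares 297 exonic bases with an annotated transcript on its own strand, Gm43422.

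SMAD2 and SMAD3 are the receptor-regulated SMADs of the pathway, and SMAD4 is the partner that they share with the SMADs of bone morphogenetic proteins (BMPs). Smad2 (chromosome 18, 76241090 to 76311748) had 7392 reads, 141 CPM (138 to 144) and 16 RPKM (15.7 to 16.4). Smad3 (chromosome 9, 63646766 to 63757994) had 6602 reads, 126 CPM (123 to 129) and 22.7 RPKM (22.1 to 23.2). The excess of Smad3 depended on the length used: it was 1.42-fold higher over all exons (1.37 to 1.46). Per coding length Smad3 was 0.981 times Smad2 (0.949 to 1.01), an interval that holds equal levels. Smad4 (chromosome 18, 73634790 to 73703791) had 8994 reads, 171 CPM (168 to 175), and with 46.2 RPKM (45.2 to 47.1) the highest level over all exons of the 10 genes. It exceeded the sum of Smad2 and Smad3 over all exons, 1.19-fold (1.16 to 1.22), but reached only 0.520 times that sum per coding length (0.507 to 0.534). Over all exons Smad2, the lowest of the 3, was above 79.8% of the detected coding genes, and Smad4 was above 94.8%.

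Smad7 and Skil restrain the pathway and are themselves among its early target genes. SMAD7 occupies the type I receptor and recruits ubiquitin ligases to it, and SKIL, also called SnoN, represses target genes through SMAD complexes. Smad7 (chromosome 18, 75367365 to 75395935) had 8744 reads, 167 CPM (163 to 170) and 36.8 RPKM (36.1 to 37.6), above 92.6% of the detected coding genes. Skil (chromosome 3, 31095058 to 31122923) had 7054 reads, 134 CPM (131 to 138) and 13.9 RPKM (13.5 to 14.2), above 76.7% of them. Smad7 was 2.66-fold higher per length than Skil (2.58 to 2.74) and 1.95-fold higher when only the exons of the transcripts named in the rows were used. Among the 10 genes, Smad7 was second over all exons and first per coding length, at 130 RPKM on that scale.

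**Figure D1:**
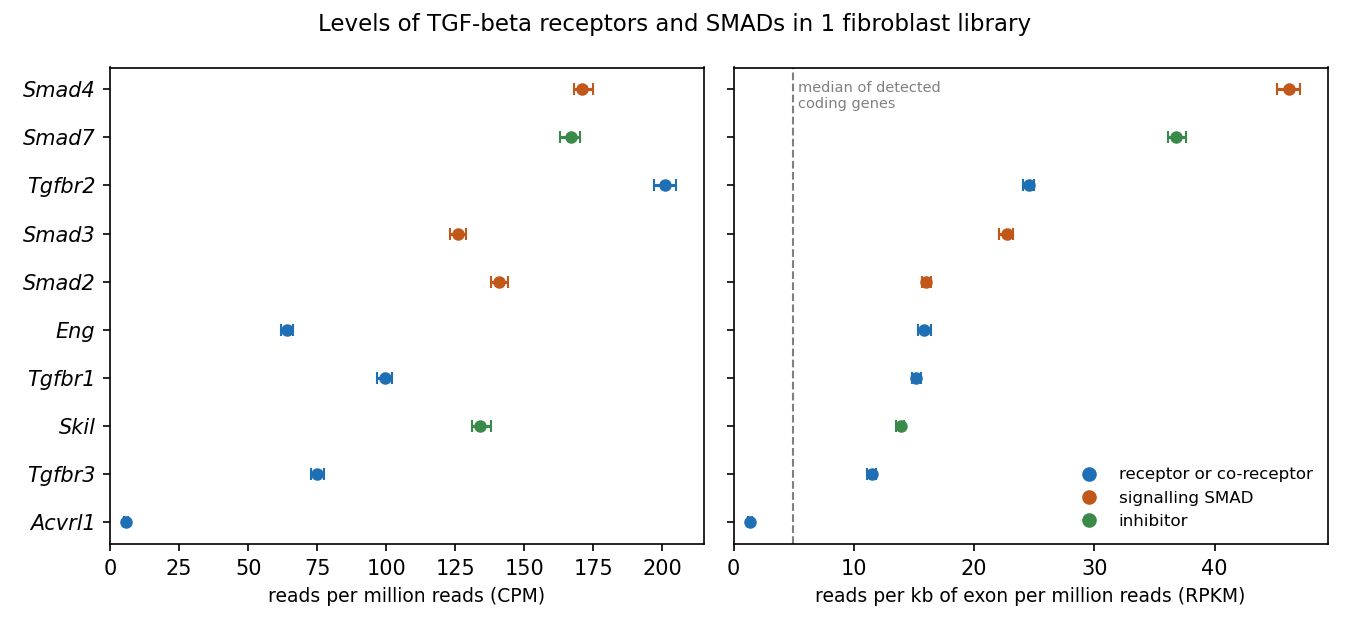
Levels of the 10 genes in the library labelled normal fibroblast, as CPM (left) and RPKM (right), ordered by RPKM; points are single values, bars are exact 95% Poisson intervals, and the dashed line is the median of detected coding genes, 4.94 RPKM. Tgfbr2 leads in CPM at 201 and Smad4 in RPKM at 46.2, and Acvrl1 is lowest on both scales.

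All 10 genes had at least 10 reads, beside 67.6% of all protein-coding genes. Their levels over all exons spanned 1.35 to 46.2 RPKM, with a median of 15.9 RPKM, against a median of 4.94 RPKM over the 13883 detected coding genes with a known length. Of the 10 genes, 9 lay above that median, as did 33.9% of all coding genes, and Acvrl1 was the exception at 0.274 times the median. In the order of RPKM, Smad4 came first, followed by Smad7, Tgfbr2, Smad3, Smad2, Eng, Tgfbr1, Skil, Tgfbr3 and Acvrl1. The counting intervals of Smad2 and Eng overlapped, as did those of Eng and Tgfbr1. The largest step between neighbours was that from Tgfbr3 to Acvrl1, 8.46-fold, and each other step was at most 1.5-fold.

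**Figure D2:**
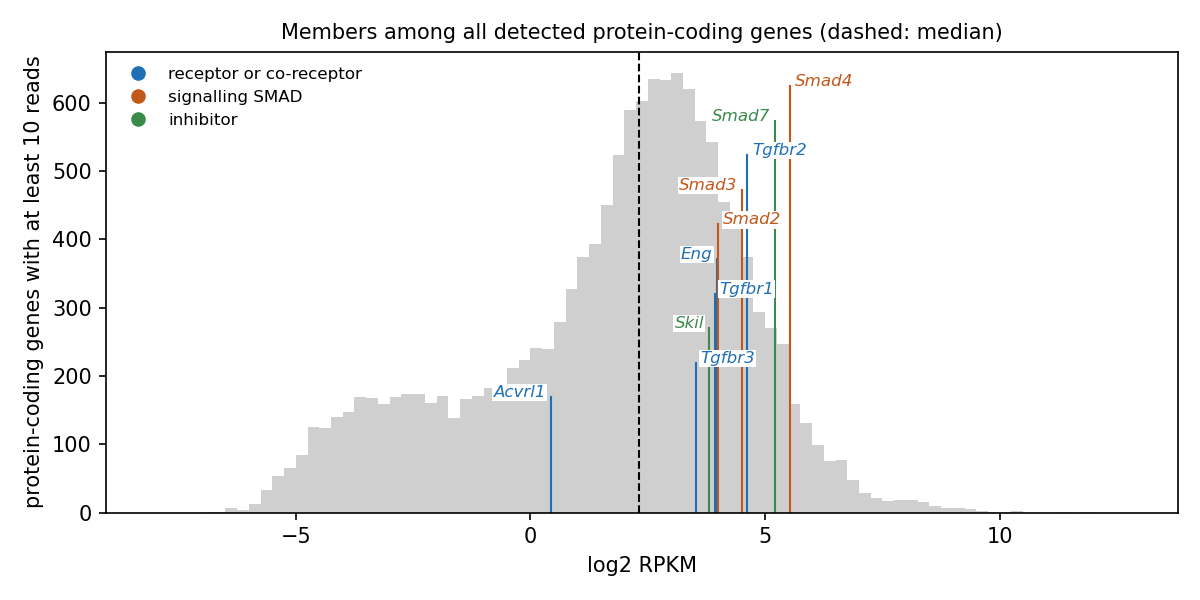
Histogram of log2 RPKM of detected protein-coding genes, with the 10 genes as labelled lines whose heights only separate the labels and the median as a dashed line. All lines but that of Acvrl1, at 1.35 RPKM, lie to the right of the median.

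Part of this order depended on the length by which reads were divided. Of length, 4 definitions were compared: all annotated exons, the longest single transcript, the exons of the transcripts named in the row, and the longest coding sequence. Of the 45 pairs that the 10 genes form, 35 kept their order under all 4 definitions and 10 did not. The count went by single values, so turns within counting error are among the 10. Tgfbr2 and Smad3 turned on 24.6 and 24.7 RPKM over the exons named in the row. Smad3 to Smad2 turned on a ratio of 0.981 per coding length, with an interval of 0.949 to 1.01. The transcripts of Smad2 show the range, since the longer one has 8089 bases and the shorter 2410 bases around the same 1401 coding bases. Smad2 was at the 79.8 percentile of detected coding genes over all exons and at the 90.4 percentile per coding length, whereas Eng was at the 79.5 and the 69.2 percentile. Acvrl1 was last under each definition, between the 25.2 and 27.6 percentiles, and under each of the 4 the same count of 9 genes lay above the median.

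**Figure D3:**
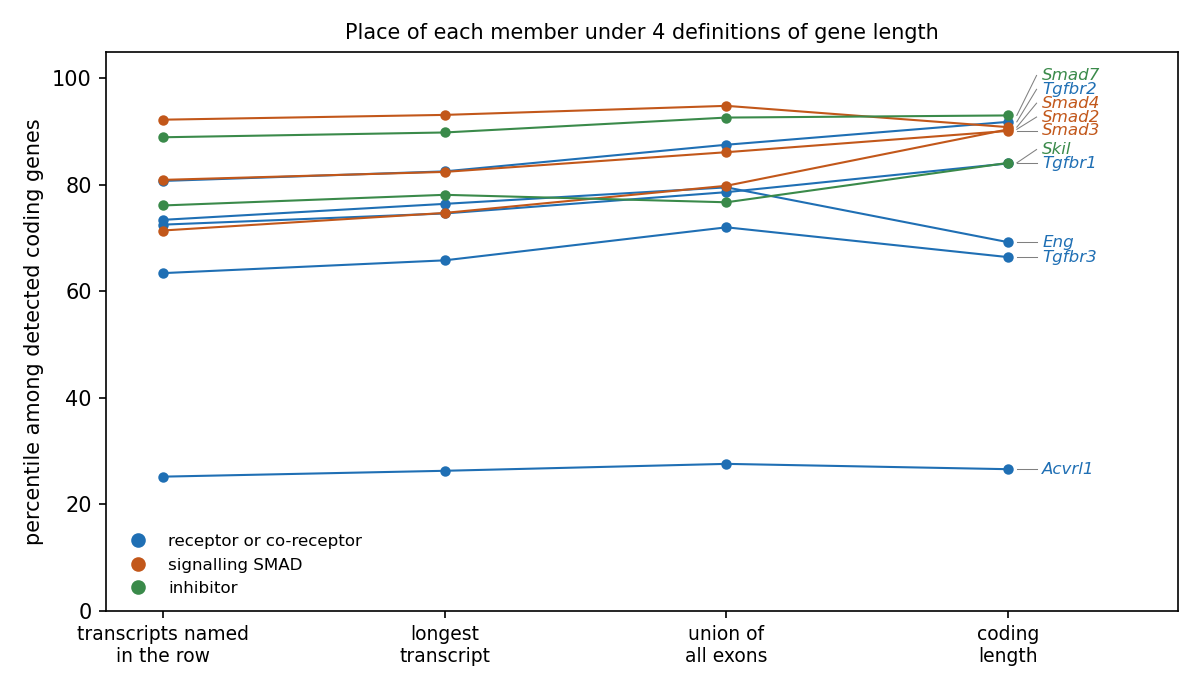
Percentile of each of the 10 genes among detected protein-coding genes (vertical axis) under 4 definitions of gene length (horizontal axis); lines join the values of 1 gene. Smad7 stays between 88.9 and 93.0 and Acvrl1 between 25.2 and 27.6, while the lines of Smad2 and Eng cross.

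Set among the other receptors of the superfamily, Tgfbr2 was the leading type II receptor. It made up 68.6% of the summed RPKM of the 5 type II receptor genes, and Bmpr2 and Acvr2a, which serve BMPs and activins, followed at 5.41 and 5.37 RPKM. Acvr2b had 0.412 RPKM, and Amhr2, the receptor of anti-Müllerian hormone, had 5 reads. Among the 7 type I receptor genes Tgfbr1 was second with 20.0% of the summed RPKM, behind the BMP receptor gene Bmpr1a at 51.3 RPKM, or 67.5%. The activin and BMP receptor genes Acvr1 and Acvr1b had 3.82 and 3.66 RPKM, above Acvrl1, whereas Bmpr1b had 0.604 RPKM and Acvr1c, a receptor for nodal, 15 reads. The order of the single values within each of these receptor classes was the same under all 4 definitions of length. Over all exons, however, the counting intervals of Bmpr2 and Acvr2a overlapped, as did those of Acvr1 and Acvr1b.

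Of the 8 SMAD genes, the 4 described above also led over all exons. Below Smad2 came the BMP-regulated Smad5 at 14.3 RPKM, the inhibitory Smad6 at 13.1, and the BMP-regulated Smad1 and Smad9 at 8.41 and 3.46 RPKM. Smad1 stood above Smad2, 17.0 against 16.6 RPKM, when only the exons of the transcripts named in the rows were used. Smad2 and Smad3 together had 38.7 RPKM and the 3 BMP-regulated SMADs 26.2 RPKM, and the first sum was also the larger per coding length (199 and 128) and over the exons named in the rows (41.3 and 35.2). Smad7 exceeded Smad6, the inhibitor that acts mainly on BMP signals, under each definition.

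**Figure D4:**
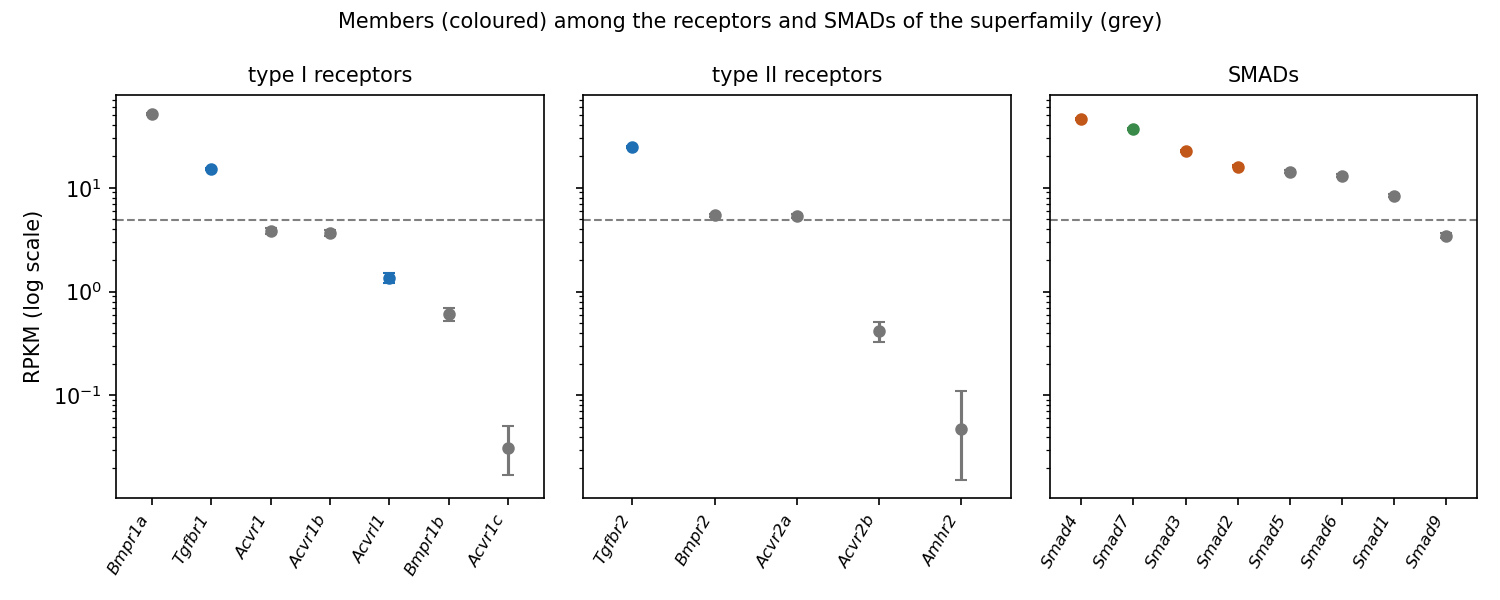
RPKM on a log axis of the type I receptors, type II receptors and SMADs, with the genes described here in colour, the others in grey, exact 95% Poisson intervals as bars and the median of detected coding genes dashed. Tgfbr2 leads its class at 24.6 RPKM, Tgfbr1 is second at 15.2, and Acvrl1 is lower, at 1.35.

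The other genes of the pathway were read from 7 lists with 81 genes in all, of which 79 reached 10 reads and 59 exceeded 4.94 RPKM, the median of detected coding genes. For these lists and the cell type markers below, counts above 4.94 RPKM and medians were taken over all exons only. They were not repeated with the other lengths. Over all protein-coding genes, 67.6% reached 10 reads and 33.9% exceeded 4.94 RPKM, shares against which each count of a list given here is to be read. Of the 9 other receptors only 3 exceeded 4.94 RPKM, near that share, and their median was 3.66 RPKM. Of the 4 other SMADs 3 did, with a median of 10.8 RPKM. Ligands and genes that store or release them had a median of 27.3 RPKM, with 8 of 12 above 4.94. They were led by Thbs1, whose product thrombospondin can activate latent TGF-beta, at 462 RPKM, and by the integrin gene Itgav at 70.1 RPKM. The lowest were Itgb6 at 0.139 RPKM and Itgb8 at 1.12 RPKM, the integrin partners that release TGF-beta in epithelial and other cells. Among the ligands themselves, named after their values were seen, Tgfb3 had 46.3 RPKM, Tgfb2 4.55 RPKM and Tgfb1 only 1.42 RPKM. The counting interval of Tgfb1, 1.28 to 1.57, overlaps that of Acvrl1.

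A list of 14 other regulators, drawn up as negative ones, had 11 genes above 4.94 RPKM and a median of 10.3. It also holds Rnf111 and Usp15, at 6.93 and 9.21 RPKM, whose products are known to promote signalling. Without these 2, left out after the values were seen, 9 of 12 lay above 4.94 and the median was 12.9 RPKM. Strap, an adaptor that holds SMAD7 at the receptor, had 71.8 RPKM and Fkbp1a, whose product FKBP12 binds the unstimulated type I receptor, 70.7 RPKM. Bambi, a pseudoreceptor without a kinase, had 2.66 RPKM and the SMAD corepressor gene Tgif2 1.55 RPKM. The paralogue of Skil, Ski, had 28.2 RPKM, again named after its value was seen. The adaptors and non-SMAD branch had 10 of 13 genes above 4.94 and a median of 8.66 RPKM, from the endocytic adaptor Dab2 at 26.0 and Gipc1 at 25.9 down to Arrb2 at 3.92 and the polarity gene Pard6a at 2.71. The nuclear partners had 8 of 11 genes above 4.94, led by Sp1 at 30.0 RPKM and the corepressor gene Ncor1 at 23.5 RPKM, with Mecom at 0.233 RPKM and Foxh1, the partner of SMAD2 in the early embryo, at 5 reads.

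Textbook target genes in fibroblasts had the highest median of the 7 lists, 59.7 RPKM, and 16 of 18 lay above 4.94 RPKM. Acta2 and Tagln, genes of contractile proteins, had 2896 and 1099 RPKM. Nox4, an oxidase gene, had 1.14 RPKM, and Tgfbi, the gene named for its induction by TGF-beta, had 56 reads or 0.283 RPKM. The list thus held both the most abundant pathway genes and members far below the median. It shares Col1a1 and Col1a2 with the fibroblast markers given below, so it is not separate from that list. Cultures with and without added TGF-beta were not analysed here.

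**Figure D5:**
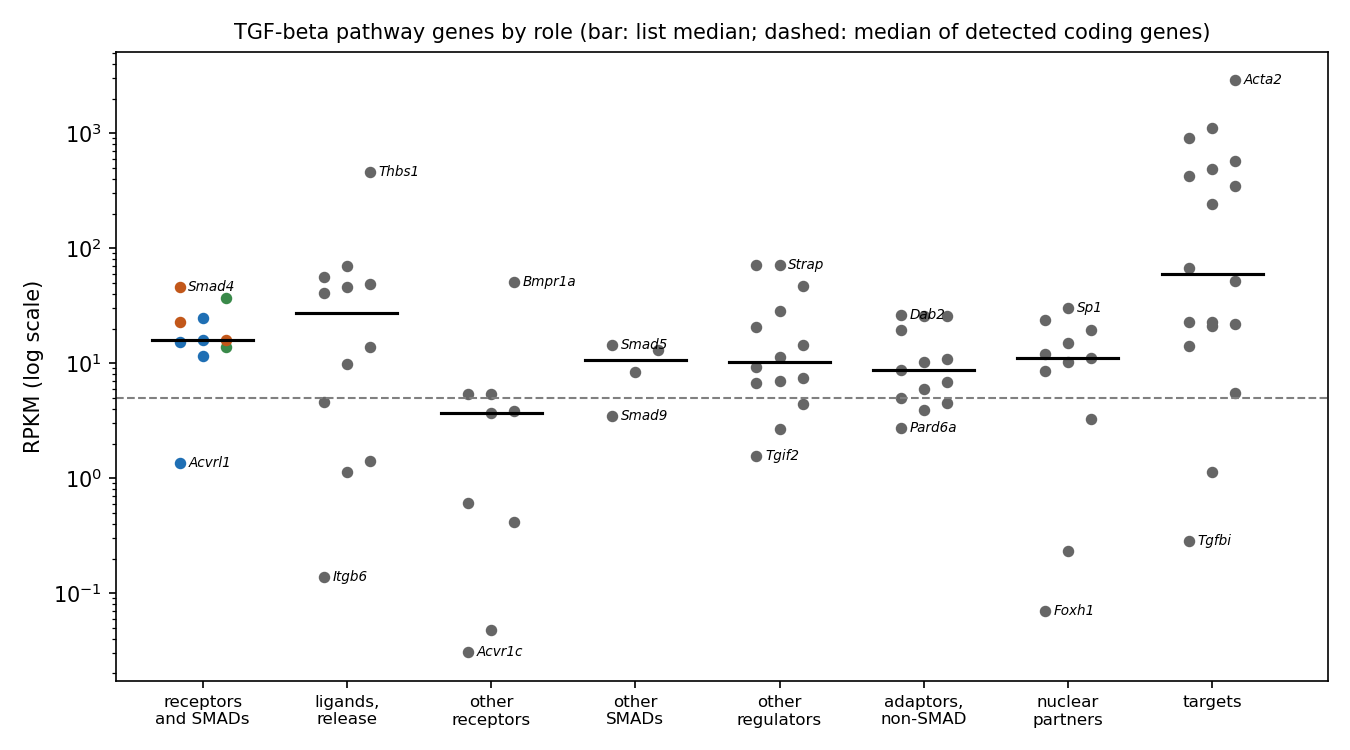
RPKM on a log axis of the 10 genes (coloured) and of the genes of 7 pathway lists (grey), 1 point per gene, with list medians as bars, the lowest and highest gene of each list named, and the median of detected coding genes dashed. The 10 genes have a median of 15.9 RPKM, between those of the other receptors, 3.66, and the targets, 59.7.

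The labelled cell type was checked against its markers, again beside the 33.9% of all coding genes that exceeded 4.94 RPKM. Of the 10 fibroblast markers 9 exceeded 4.94 RPKM, with a median of 182 RPKM, from Vim at 603 to Lum at 2.16 RPKM. All 10 had at least 10 reads, beside 67.6% of all coding genes. Because Eng and Acvrl1 are known from endothelial cells, the endothelial list is given beside them. Of its 16 markers 2 exceeded 4.94 RPKM, Kdr at 20.1 and Flt1 at 7.55, and the list median was 0.0505 RPKM. The summed level of this list was 29.3 RPKM, most of it from Kdr and Flt1. Pecam1 and Cdh5, also named after their values were seen, had 13 and 17 reads, or 0.0398 and 0.0771 RPKM, and Cldn5 had 0 reads. For 0 reads the 2-sided interval ends at 0.0703 CPM, and the floor of 3 reads, a 1-sided limit, is 0.0571 CPM. Eng, at 15.8 RPKM, lay below Kdr and above the other markers of this list. Acvrl1, at 1.35 RPKM, lay below Kdr and Flt1 and above the others. The macrophage list had 9 of 10 markers at or below 4.94 RPKM, with Ptprc at 26 reads, Lyz2 highest at 6.99 RPKM and Aif1 lowest at 1 read, and a summed level of 17.4 RPKM. Mesothelial markers were all above 4.94 RPKM, from Wt1 at 15.7 to Upk1b at 67.6, with a sum of 245 RPKM. Acinar markers ranged from Rbpjl at 0.0698 to Ctrb1 at 58.5, with 6 of 10 above 4.94 and a sum of 178 RPKM. These 6 all encode digestive enzymes, the lowest being Cpa1 at 13.4 RPKM. Of the other 4, Prss1 also encodes an enzyme and had 6 reads. The rest encode regulators of transcription, with 51 reads for Bhlha15, 21 for Rbpjl and 6 for Ptf1a. This split was described after the values were seen, and its reason was not tested. Epithelial markers ranged from Epcam at 0.529 to Krt18 at 8.22 RPKM, with 2 of 7 above 4.94 and a sum of 19.1 RPKM. The part of such cells in the levels of the 10 genes was not tested, and in bulk RNA fewer cells of a type and less RNA per cell cannot be told apart.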

How the data were processed

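Total RNA of 1 sample was extracted with Trizol and sequenced on SOLiD libraries, as per the labels' protocols. The authors' deposited signal is 1 normalised count per gene; all 20976 values above 0 were whole multiples, within 0.006, of the worth of 1 read (1.18), so whole reads were recovered (size factor 0.850; 100.00% whole). The design had assumed reads, so its measures were run on these. No count test was run, since there is no replicate. The submitters' processing notes name DESeq and mm10, with no role given; the aligner, counter, strand setting and annotation were not given in the sources used here.

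Rows of 1 name or with a copy suffix were summed. Lengths came from GENCODE M21 (GRCm38, the assembly that mm10 denotes), found for 99.7% of 20559 coding genes, and gene positions from the GRCm38.p6 RefSeq table. Ratios have exact conditional (Clopper-Pearson) intervals; that of Smad4 holds the split between Smad2 and Smad3 fixed. One read is 0.0190 CPM, and reads are not independent molecules.

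The 10 genes and all lists were chosen with earlier results of these data known. The text names the 10 genes, the 2 highest and 2 lowest of each pathway list, the highest and lowest of each marker list, and a few more after their values were seen. Recovery was tested on simulated data. Alternatives were other totals, lengths and detection thresholds. The software was scipy 1.17.1, pandas 2.3.3 and numpy 2.4.6 under Python 3.11.15, and matplotlib 3.10.9 for plots. One further item of the genotype label is not reported here.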

Additional observations from a re-analysis of the deposited data

How the results depend on the processing

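No paired analysis was possible because there is only 1 sample, and for the same reason leaving out a replicate had no meaning. All 10 genes were detected at 1 and at 50 reads, 9 stayed above the median under both other settings, and 81 and 78 pathway genes were detected at 1 and 50 reads. The median CPM of the 10 genes, 130, became 141 with a total of coding genes and 174 without the 100 most abundant genes, which raised every gene by 0.12 and 0.42 log2 units. Their median of 15.9 RPKM became 19.4 with the longest transcript, 82.5 with the coding length and 19.0 with the exons named in the row, a setting chosen after seeing the data; dividing by a shorter length raises every level. In the order longest transcript, coding length, no division by length and exons named in the row, the ratio of Tgfbr2 to Tgfbr1 was 1.44, 1.72, 2.02 and 1.42, and that of Smad7 to Skil 1.95, 1.96, 1.24 and 1.95. Tgfbr1 to Acvrl1 was 17.2 with the coding length and without division. The ratio of Tgfbr3 to Eng, 0.723, was 0.657, 0.898 and 0.686 with the other lengths and turned to 1.17 without division. That of Smad3 to Smad2, 1.42, was 1.49 with the exons named in the row and turned to 0.893 without division. With the coding length it was 0.981, and its interval of 0.949 to 1.01 holds equal levels. That of Smad4 to Smad2 plus Smad3, 1.19, was 1.23 with the exons named in the row and turned to 0.520 and 0.643. Reads that fall in untranslated ends are divided out by exon lengths and not by the coding length. Depth limits Acvrl1 most among the 10, with 303 reads.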
